A study of Homo sapiens with 8 samples.

Results

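The genes described here are the amino-acid transporter families SLC3, SLC6, SLC7, SLC36, SLC38 and SLC43 in UM-RC-2 cells, an established line of clear cell renal cell carcinoma that the labels give as mutant for VHL. Members were taken by symbol, as every gene of the count tables named as one of these families followed by A and a number, which gave 52 of 43682 genes. They comprised 2 SLC3, 19 SLC6, 13 SLC7, 4 SLC36, 11 SLC38 and 3 SLC43 genes. The SLC1 family was left out by the same rule. The family names do not all stand for amino-acid carriers. SLC6 also holds the monoamine and creatine transporters, and SLC43A3 carries purine nucleobases.

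RNA had been sequenced from cells stably expressing VHL (2 libraries) or a construct that the labels name VEC (2 libraries), made by lentiviral infection and selected in 10 µg/ml blasticidin. All 4 libraries share the UM-RC-2 background, its mutant VHL gene and the selection. The labels do not say whether the replicates came from separate cultures, or whether the cells are a clone or a pool, so the spread between libraries may be technical. The comparison asks how introduced VHL, a tumour suppressor whose ubiquitin ligase destroys HIF-alpha proteins when oxygen is present, went with transporter transcripts.

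These carriers work in known combinations. SLC3 proteins are heavy chains that bring SLC7 light chains to the cell surface, where most of the pairs exchange one amino acid for another. SLC6 carriers use the sodium gradient, many of them with chloride as well. SLC38 carriers use sodium to take up glutamine and other small neutral amino acids, and some SLC36 carriers are driven by protons. In the proximal tubule, from which clear cell carcinoma is thought to arise, apical SLC6 and SLC3/SLC7 carriers recover amino acids from the filtrate, and collectrin (CLTRN) holds several of them at the brush border.

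Values are read counts, and CPM, which is counts scaled to library size after TMM scaling between libraries. CPM is not corrected for gene length, so levels were compared between libraries and not between genes. Total counts were between 16230291 and 50027348 a library. The labels give the molecule as total RNA for both replicate 1 libraries and as polyA RNA for both replicate 2 libraries, and the headers name the alignments of the replicates in different forms. Replicate 1 and replicate 2 libraries of the same group correlated at r = 0.504 (VEC) and 0.534 (VHL) across genes, against 0.991 and 0.978 between VEC and VHL of one number. VHL was therefore compared with VEC within each replicate number, and by 2 fits across all genes. The group-only fit has group as its only term, and the blocked fit adds the replicate number. Log2 changes are VHL minus VEC throughout, with SE from the fit. The renal epithelial markers summed to between 391 and 472 CPM a library, with all 7 detected in each. Of the markers of other cells, PECAM1, CDH5, VWF, KDR and CD3E were at 0 in every library. PTPRC, the defining immune marker, was at 0 in replicate 1 and at 72 and 63 counts in replicate 2. The immune list summed to between 11.8 and 43.9 CPM, mostly CD68, and the fibroblast list to at most 3.09 CPM; their part in the results was not tested. VHL was at 37.1 (VEC) and 146 (VHL) CPM in replicate 1 and 88.9 and 151 in replicate 2, a rise in the blocked fit (adjusted p = 4.63e-07, edgeR), and CA9, a target of hypoxia-inducible factors (HIF), fell, with 67.5 and 1.55 CPM, then 61.8 and 1.40 (adjusted p = 2.04e-76).

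Of the 52 transporters, 7 had 0 counts in all 4 libraries, among them SLC6A3, SLC6A5, SLC6A7, SLC7A3, SLC7A10 and SLC38A8. A further 11 had counts in replicate 2 only and SLC6A9 in replicate 1 only. The low-count filter kept 35 for testing. The other 17 never exceeded 28 counts in a library. Those with any count were SLC38A5, SLC38A11, SLC43A1, SLC6A2, SLC6A9, SLC6A16, SLC6A17, SLC6A18, SLC7A4 and SLC7A8. By mean CPM over the libraries, 27 members were over 10, 5 between 1 and 10, and 20 under 1. Of these, 27, 5 and 3 were tested, and the 3 classes held 2, 2 and 0 of the calls described next. All 17 untested members were in the class under 1 CPM, so its 0 calls say little about abundance.

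In the blocked fit, 4 of the 35 tested transporters were called at a Benjamini-Hochberg adjusted p under 0.05. SLC6A13 and SLC6A19 fell in VHL cells, and SLC7A2 and SLC6A15 rose. Over all 24417 genes tested, 3.1% were called in this fit (2.35% lower and 0.749% higher), and over the 13916 protein-coding genes 3.64%. In the group-only fit, 0 of the 35 and 0% of all genes passed the threshold in edgeR, 0 of the 35 had an unadjusted p under 0.05 (22 of all genes did), and DESeq2 without the block called 0 of the 35 and 6 of all genes, with 2 of the 35 at an unadjusted p under 0.05. In edgeR's group-only fit every transporter had an adjusted p of at least 0.999991, and the spread in that fit includes the difference between the replicates. Less RNA per cell and fewer cells expressing a gene cannot be told apart in these bulk libraries. As a set the 35 showed no common direction. Their log2 changes had a median of -0.04 without the block and -0.04 with it, beside -0.03 and -0.03 over all genes. Among the 30 with counts in both pairs, 12 were higher in VHL in both (28.4% of the 19555 tested genes with counts in both pairs were), 8 were lower in both (31.2%) and 10 changed sign.

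The promoters of the called genes that fell, SLC6A13 and SLC6A19, and of CLTRN, which fell with them, are shown because hypoxia-inducible factors bind a short core motif. The called genes that rose, SLC7A2 and SLC6A15, had no promoter sequence in the reference used, so falling and rising genes could not be compared. Each is the RefSeq sequence on GRCh38.p14 from 250 bases before to 50 bases after the gene start, printed 5′ to 3′ on the gene's strand. Capitals mark the core letters ACGTG or GCGTG on either strand, and the ATF4 element TGATGNAA would be marked too.
SLC6A13, chr12:262787-263086, minus strand: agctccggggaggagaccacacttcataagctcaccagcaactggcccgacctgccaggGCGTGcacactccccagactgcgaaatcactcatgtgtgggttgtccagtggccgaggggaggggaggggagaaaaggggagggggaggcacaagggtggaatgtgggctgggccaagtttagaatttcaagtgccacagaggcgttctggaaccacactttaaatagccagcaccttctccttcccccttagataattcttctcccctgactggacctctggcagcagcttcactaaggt
SLC6A19, chr5:1201345-1201644, plus strand: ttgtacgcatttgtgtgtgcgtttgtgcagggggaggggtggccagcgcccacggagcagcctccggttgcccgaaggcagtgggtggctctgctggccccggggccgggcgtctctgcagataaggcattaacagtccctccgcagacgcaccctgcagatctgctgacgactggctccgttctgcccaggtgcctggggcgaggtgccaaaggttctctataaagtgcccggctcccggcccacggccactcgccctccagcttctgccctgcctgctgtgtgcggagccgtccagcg
CLTRN, chrX:15664756-15665055, minus strand: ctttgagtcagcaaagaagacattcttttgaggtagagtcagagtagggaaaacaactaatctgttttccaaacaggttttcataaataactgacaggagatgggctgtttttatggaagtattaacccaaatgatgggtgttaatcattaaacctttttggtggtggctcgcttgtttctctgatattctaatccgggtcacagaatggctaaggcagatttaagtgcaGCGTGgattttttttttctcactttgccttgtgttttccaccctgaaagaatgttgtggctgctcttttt
SLC6A13 and CLTRN held 1 match each, both of GCGTG on the printed strand, and SLC6A19 held none. Of the 38 member promoters matched by symbol, 19 (50%) held ACGTG or GCGTG, against 48.4% of all 27305 promoters. TGATGNAA was found in 3 of the 38 (SLC38A1, SLC3A2 and SLC7A1, 7.89%), against 3.67% of all. A match in such a window is a description of letters and does not mark a bound site.

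SLC6A13 encodes GAT2, a carrier of GABA and taurine found in kidney and liver. It was measured at 23.5 (VEC) and 10.1 (VHL) CPM in replicate 1 (545 and 188 counts), and at 24.0 and 9.11 CPM in replicate 2 (1096 and 372 counts). Both VHL libraries lay below both VEC libraries, and the VEC levels of the replicates were close to each other. VHL was 2.34-fold lower than VEC in replicate 1 and 2.64-fold lower in replicate 2. The group-only fit gave a log2 change of -1.31 ± 0.78 and the blocked fit -1.31 ± 0.26 (SE, n = 2 per group, adjusted p = 7.97e-05, edgeR), and SLC6A13 ranked 167 by p among all genes in the latter.

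SLC6A12, the neighbour of SLC6A13 on chromosome 12, encodes BGT1, which takes up betaine and GABA and serves osmotic balance in the kidney medulla. It was measured at 52.6 (VEC) and 33.0 (VHL) CPM in replicate 1, and at 18.4 and 11.0 CPM in replicate 2. VHL was lower in each pair, by 1.59-fold and 1.68-fold, while the groups overlapped because replicate 2 was lower than replicate 1. The blocked log2 change was -0.71 ± 0.23 and missed the threshold (adjusted p = 0.0563, edgeR). It passed in 4 of the 6 blocked fits that were run, whose adjusted p ranged from 0.000897 to 0.0935 (edgeR and DESeq2). An antisense gene, SLC6A12-AS1, overlaps it and had at most 9 counts in a library.

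SLC6A19 encodes B0AT1, the main apical carrier of neutral amino acids in the proximal tubule, which needs collectrin at the brush border. It had 4.62 (VEC) and 1.45 (VHL) CPM in replicate 1 (107 and 27 counts), and 3.38 and 1.05 CPM in replicate 2 (154 and 43 counts). The groups did not overlap, although the counts were low. VHL stood at 0.313 of VEC in replicate 1 (exact 95% interval 0.197 to 0.481, counting error only) and at 0.312 in replicate 2 (0.217 to 0.440). The blocked fit gave -1.68 ± 0.45 (adjusted p = 0.0109, edgeR) and the group-only fit -1.68 ± 1.27.

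CLTRN, the collectrin gene, was listed as a partner of these carriers and fell too. Its level was 247 (VEC) and 49.3 (VHL) CPM in replicate 1, and 108 and 35.7 CPM in replicate 2. Both VHL libraries lay below both VEC libraries, at 5.01-fold and 3.03-fold lower. The blocked log2 change was -1.96 ± 0.23 (adjusted p = 8.87e-15, edgeR), and the group-only one was -2.06 ± 0.66 (adjusted p = 0.999991, edgeR). SLC6A18, which lies beside SLC6A19 and also uses collectrin, had at most 3 counts in a library.

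**Figure D1:**
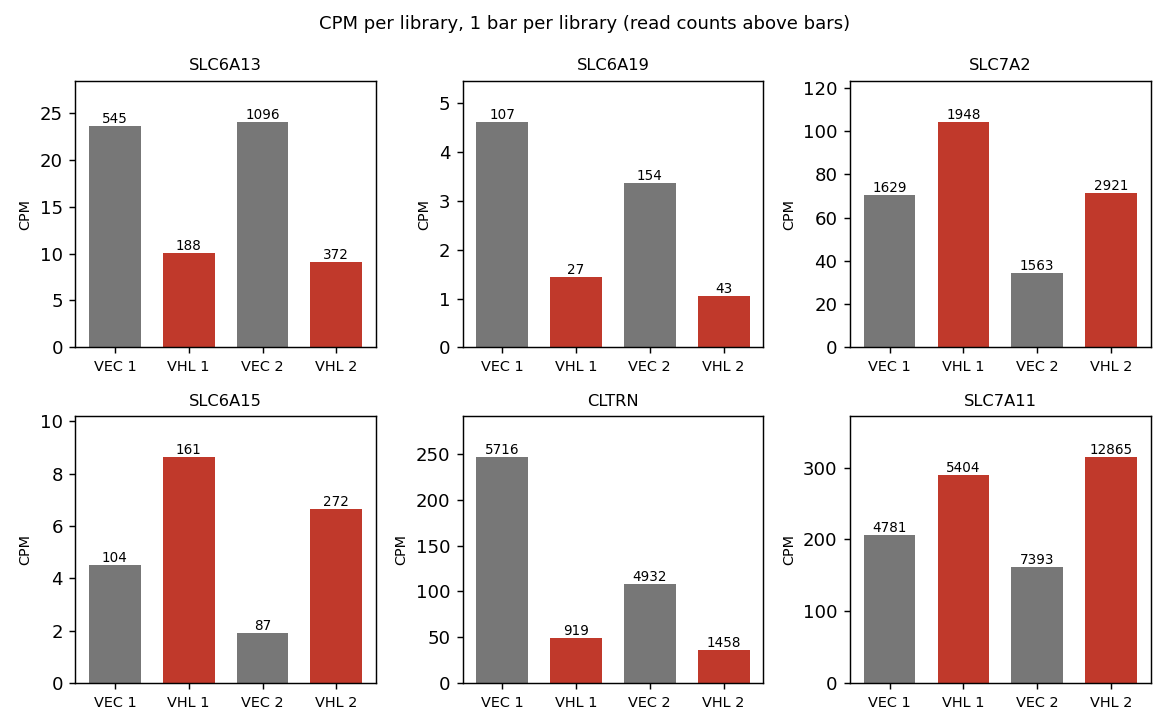
Bars give CPM on the vertical axis for each of the 4 libraries (VEC in grey, VHL in red, replicate number after the name), with read counts above; each bar is 1 library and has no error bar. SLC6A13, SLC6A19 and CLTRN are lower in both VHL libraries than in both VEC libraries, and SLC7A2, SLC6A15 and SLC7A11 are higher.

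SLC7A2 encodes CAT2, a carrier of arginine, lysine and ornithine. Its level was 70.4 (VEC) and 104 (VHL) CPM in replicate 1, with 1629 and 1948 counts. In replicate 2 it was 34.3 and 71.5 CPM, with 1563 and 2921 counts, and it rose in the blocked fit. The groups did not overlap, but only narrowly, since VHL of replicate 2 was close to VEC of replicate 1. The pair changes were 0.57 and 1.06 on the log2 scale. The blocked fit gave 0.82 ± 0.21 (adjusted p = 0.00860, edgeR) and the group-only fit 0.75 ± 0.64. The group-only change was 0.36 without VEC replicate 2, 0.45 without VHL replicate 1 and 1.36 without VEC replicate 1. The other cationic carrier with reads in every library, SLC7A1 (CAT1), had 19.0 and 23.7 CPM in replicate 1, then 35.1 and 32.8 in replicate 2. Its pair changes had opposite signs, and the blocked change was 0.10 ± 0.23 (adjusted p = 0.966, edgeR). The difference between the SLC7A2 and SLC7A1 changes was not tested.

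SLC6A15 encodes B0AT2, a carrier of branched-chain amino acids and proline that is best known from neurons. It was measured at 4.49 (VEC) and 8.63 (VHL) CPM in replicate 1 (104 and 161 counts), and at 1.91 and 6.66 CPM in replicate 2 (87 and 272 counts). Both VHL libraries lay above both VEC libraries, and the ratio was 1.92 in replicate 1 (exact 95% interval 1.49 to 2.48, counting error only) and 3.49 in replicate 2 (2.73 to 4.50). The blocked log2 change was 1.37 ± 0.36 (adjusted p = 0.00713, edgeR). The group-only change was 1.26 ± 1.19, with 0.80 without VEC replicate 2 and 2.00 without VEC replicate 1. SLC6A15 and SLC6A19, both neutral amino acid carriers of 1 family, moved in opposite directions.

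Among the 8 heavy-chain partners, 6 were tested and 0 were called in the blocked fit. SLC7A11 (xCT), which exchanges extracellular cystine for glutamate, was measured at 207 (VEC) and 290 (VHL) CPM in replicate 1, and at 162 and 315 CPM in replicate 2. The groups did not overlap. The pair changes were 0.49 and 0.96, and the blocked change was 0.72 ± 0.24 (adjusted p = 0.0710, edgeR). It passed the threshold in 4 of the 6 blocked fits, with adjusted p between 0.000866 and 0.135 (edgeR and DESeq2). SLC7A11-AS1, which overlaps it, had 119, 120, 198 and 225 counts in VEC and VHL of replicate 1 and VEC and VHL of replicate 2, beside 4781, 5404, 7393 and 12865 for SLC7A11.

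SLC7A6 (y+LAT2), which exchanges cationic for neutral amino acids, was higher in VHL in both pairs. It had 20.5 and 31.2 CPM in VEC and VHL of replicate 1 and 23.0 and 38.02 CPM in replicate 2, with no overlap of the groups. The blocked change was 0.67 ± 0.23 (adjusted p = 0.0867, edgeR), and 3 of the 6 blocked fits called it. SLC7A6OS overlaps SLC7A6 and changed the other way, from 253 to 146 and from 74 to 26 counts. Whether reads were counted by strand is not given in the sources used here, so those of overlapping genes cannot be told apart. Of the called genes, SLC6A13, SLC6A15 and SLC6A19 also overlap another locus in RefSeq, and SLC7A2 does not.

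The remaining heavy-chain partners and the heavy chains had no common direction. SLC7A5 (LAT1), the large neutral amino acid exchanger, had 84.4 and 91.8 CPM in VEC and VHL of replicate 1 and 137 and 104 CPM in replicate 2. Its pair changes were 0.12 and -0.39, and the blocked change was -0.14 ± 0.22 (adjusted p = 0.940, edgeR). SLC3A2, the CD98 heavy chain that carries SLC7A5, SLC7A6, SLC7A7 and SLC7A11, had 216 and 221 CPM in replicate 1 and 89.4 and 70.9 CPM in replicate 2. The pair changes were 0.04 and -0.34, with a blocked adjusted p of 0.937 (edgeR), while the replicate 2 libraries held 0.415 (VEC) and 0.320 (VHL) of the replicate 1 CPM. Reads of the transcribed pseudogene SLC7A5P2 ranged from 119 to 227 counts a library, beside 1713 to 6226 for SLC7A5.

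SLC7A7 (y+LAT1), the basolateral exchanger of cationic amino acids, had 193 and 162 CPM in replicate 1 and 101 and 103 CPM in replicate 2 (blocked adjusted p = 0.959, edgeR). SLC3A1 (rBAT), the heavy chain whose loss causes cystinuria, had 103 and 137 CPM in replicate 1 and 182 and 200 CPM in replicate 2. It was higher in VHL in both pairs, by 0.42 and 0.13, and was not called in the blocked fit (0.27 ± 0.23, adjusted p = 0.760, edgeR). SLC7A9, its cystine-transporting light chain, had between 49 and 85 counts a library and pair changes of 0.20 and -0.61. SLC7A13, another SLC3A1 partner of the proximal tubule, had 19 (VEC) and 0 (VHL) counts in replicate 1. With a floor of 3 counts for the VHL library, VHL was 5.10-fold lower there, a bound set by that floor and not a measured ratio. The exact 95% interval of the VHL to VEC ratio ran from 0 to 0.266 (counting error only). In replicate 2 SLC7A13 had 30 and 31 counts, so the fall was seen in 1 pair only (blocked adjusted p = 0.679, edgeR). SLC7A8 (LAT2) had at most 1 count in a library.

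**Figure D2:**
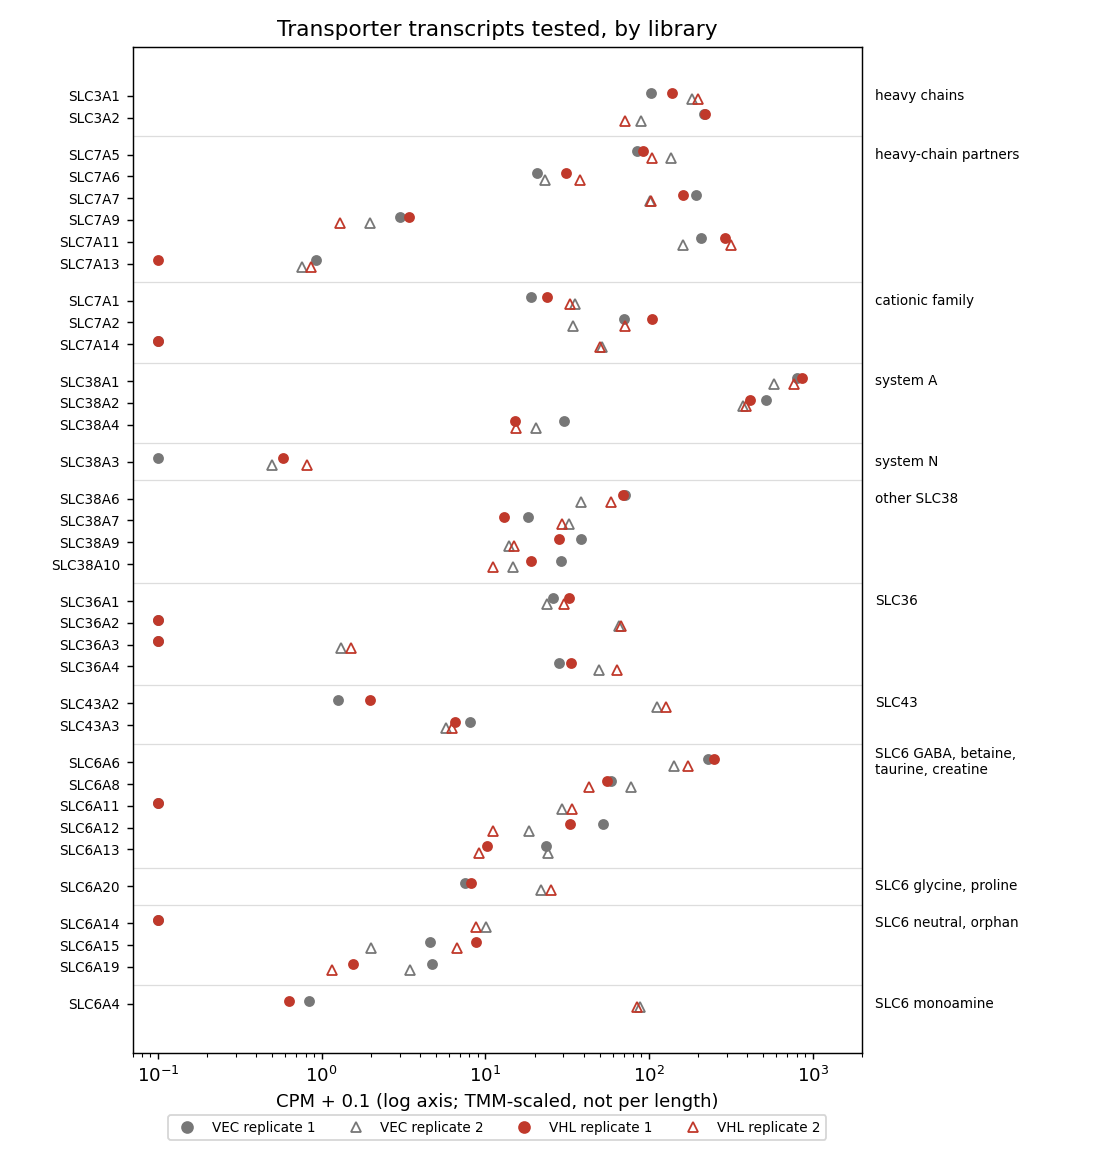
Horizontal axis, CPM + 0.1 on a log scale for the 35 tested transporters, grouped by role; filled circles are replicate 1 and open triangles replicate 2, VEC in grey and VHL in red, 1 point per library. SLC6A4, SLC43A2, SLC36A2, SLC7A14, SLC6A11 and SLC6A14 separate by replicate and not by group; at 0 CPM the VEC point lies under the VHL point.

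The SLC38 family, which supplies glutamine and alanine, had 11 members, of which 8 were tested and 0 called in the blocked fit. SLC38A1 (SNAT1), the member with most reads, had 800 and 856 CPM in VEC and VHL of replicate 1 and 579 and 767 CPM in replicate 2. It was higher in VHL by 0.10 and 0.41, within the error of the blocked fit (0.25 ± 0.27, adjusted p = 0.864, edgeR). SLC38A2 (SNAT2), induced on amino acid shortage, had 520 and 417 CPM in replicate 1 and 376 and 391.9 CPM in replicate 2, with pair changes of -0.32 and 0.06 (blocked adjusted p = 0.958, edgeR). The third system A gene, SLC38A4 (SNAT4), was lower in VHL in both pairs. It had 30.02 and 15.2 CPM in replicate 1 and 20.3 and 15.3 CPM in replicate 2, and both VHL libraries lay below both VEC libraries. Its blocked change was -0.69 ± 0.25 (adjusted p = 0.116, edgeR), and 2 of the 6 blocked fits called it. It is described because of its values, since the rule for naming genes did not select it. SLC38A1, SLC38A2 and SLC38A4 are neighbours on chromosome 12 and did not share a direction.

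SLC38A9, the lysosomal arginine sensor of the mTORC1 pathway, had 38.3 and 28.2 CPM in replicate 1 and 13.9 and 14.9 CPM in replicate 2, with changes of -0.44 and 0.11 (blocked adjusted p = 0.926, edgeR). SLC38A3 (SNAT3), a glutamine carrier of the proximal tubule, had few reads. It had 0 (VEC) and 9 (VHL) counts in replicate 1, and 18 and 29 counts in replicate 2 (blocked adjusted p = 0.368, edgeR). With a floor of 3 counts in the VEC library, VHL was 3.72-fold higher in replicate 1, a bound set by that floor and not a measured ratio. The exact 95% interval of the VHL to VEC ratio in replicate 1 began at 2.45 (counting error only). SLC38A10 was lower in VHL in both pairs without a call (-0.61 and -0.41, blocked adjusted p = 0.369, edgeR), SLC38A7 and SLC38A6 were not called either, and SLC38A5, SLC38A8 and SLC38A11 were not tested.

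In the SLC36 family all 4 members were tested and 0 called. SLC36A1 (PAT1), which exports small amino acids from lysosomes, had 25.7 and 32.5 CPM in VEC and VHL of replicate 1 and 23.7 and 30.3 CPM in replicate 2. The groups did not overlap and the pair changes were alike, at 0.34 and 0.35, yet the blocked change of 0.35 ± 0.23 was not called (adjusted p = 0.616, edgeR). SLC36A3 had reads in replicate 2 only, with 55 and 58 counts. SLC36A1 overlaps SLC36A2 in the RefSeq table. SLC36A4 had 28.0 and 33.4 CPM in replicate 1 and 49.1 and 63.7 CPM in replicate 2, higher in VHL in each pair (blocked 0.32 ± 0.21, adjusted p = 0.636, edgeR).

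Of the SLC43 family, SLC43A2 (LAT4) and SLC43A3 were tested and 0 called. SLC43A2, a basolateral carrier of branched-chain amino acids and phenylalanine, had 27 and 35 counts in replicate 1 and 5092 and 5211 counts in replicate 2. VHL differed from VEC by 0.66 and 0.19 (blocked adjusted p = 0.726, edgeR). SLC43A3 had between 120 and 258 counts a library (blocked adjusted p = 0.985, edgeR). SLC43A1 (LAT3) was too low for the test, with 5 and 11 counts in replicate 1 and 4 and 10 in replicate 2. The VHL to VEC ratio was 2.73 and 2.79 in the pairs, with exact 95% intervals of 0.874 to 10.0 and 0.805 to 12.2 (counting error only), so a difference was not detectable at this depth in either pair. SLC38A11, also untested, had 6 and 2 counts in replicate 1 and 28 and 8 in replicate 2. Its VHL to VEC ratio was 0.414 in replicate 1 (exact 95% interval 0.0408 to 2.31, counting error only) and 0.319 in replicate 2 (0.126 to 0.718).

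Of the 5 tested GABA, osmolyte and creatine carriers of SLC6, only SLC6A13 was called in the blocked fit, and SLC6A12 missed the threshold as described above. SLC6A6 (TauT), the taurine carrier and the SLC6 member with most reads, had 230 and 250 CPM in VEC and VHL of replicate 1 and 143 and 174 CPM in replicate 2 (blocked 0.20 ± 0.23, adjusted p = 0.879, edgeR). SLC6A8, the creatine carrier, had 58.9 and 55.7 CPM in replicate 1 and 77.8 and 42.8 CPM in replicate 2. It thus barely differed in replicate 1 and was 1.82-fold lower in VHL of replicate 2 (blocked -0.47 ± 0.21, adjusted p = 0.281, edgeR). The near-identical pseudogene SLC6A10P had 1 and 0 counts in replicate 1 but 1585 and 832 in replicate 2. Its reads and those of SLC6A8 may be split by the counting, so the replicate 2 value of SLC6A8 is uncertain. SLC6A20, the imino acid carrier, was measured at 7.43 and 8.04 CPM in replicate 1 and at 21.8 and 25.0 CPM in replicate 2 (blocked adjusted p = 0.946, edgeR).

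**Figure D3:**
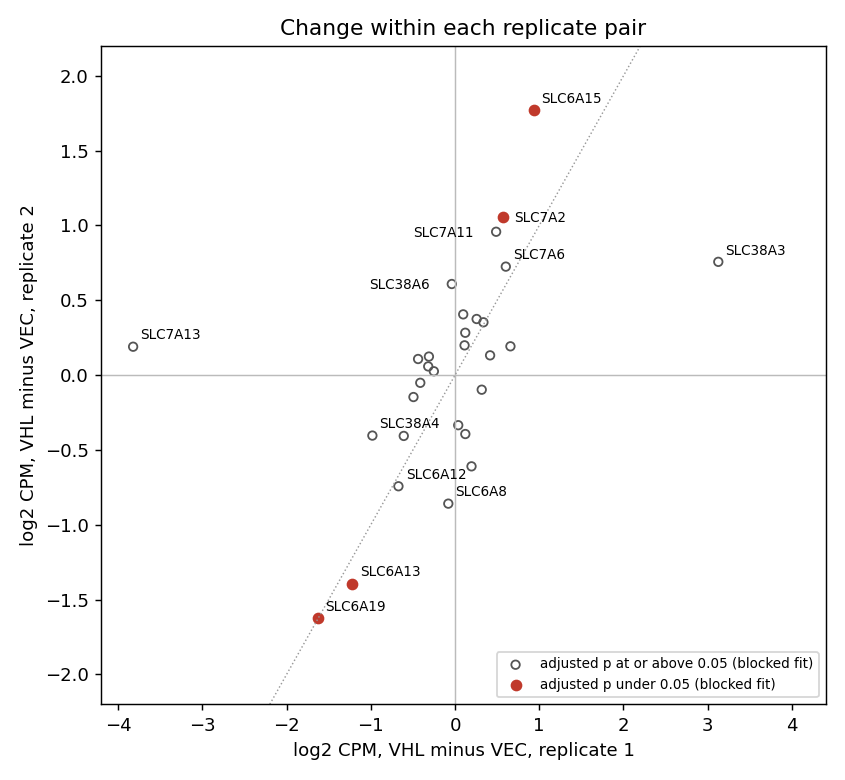
Each point is 1 of the 30 tested transporters with counts in both pairs, plotted by its log2 CPM difference, VHL minus VEC, in replicate 1 (horizontal) and replicate 2 (vertical); filled points passed the blocked fit and the dotted line marks equal changes. SLC6A13 and SLC6A19 lie near the line at the lower left, SLC6A15 and SLC7A2 lie at the upper right, and SLC7A13 and SLC38A3 are far out on the horizontal axis with 0 counts in 1 replicate 1 library.

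Across the 35 tested transporters, the VHL and VEC libraries did not overlap for 10, with 4 below VEC (SLC6A13, SLC6A19, SLC38A4 and SLC6A8) and 6 above (SLC6A15, SLC7A2, SLC7A11, SLC7A6, SLC36A1 and SLC38A3). Over all genes tested 7.86% did not overlap (3.39% below and 4.47% above), and over protein-coding genes 12.1%. A change of at least 0.5 in the same direction in both pairs was found for 3 lower (SLC6A12, SLC6A13 and SLC6A19; 5.79% of all genes) and 4 higher (SLC6A15, SLC7A2, SLC7A6 and SLC38A3; 3.07% of all genes). The 31 tested transporters that were not called had blocked changes between -1.04 and 1.64, and for 24 of them the size was under 0.5, with SE of at least 0.21.

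Several transporters differed far more between the replicates than between VHL and VEC. SLC36A2, a glycine and proline carrier of the kidney, was at 0 in replicate 1, with 2970 (VEC) and 2747 (VHL) counts in replicate 2. SLC7A14 had 0 and 0, then 2346 and 2040 counts, and SLC6A11, the GABA carrier GAT3, had 0 and 0, then 1338 and 1386. These are 3 of the 52 members (5.77%), and 1.37% of all genes (598) were likewise at 0 in replicate 1 with at least 1000 counts in each replicate 2 library, of which 302 were pseudogenes and 205 protein-coding. SLC6A14, a broad carrier of neutral and cationic amino acids, had 0 and 0, then 455 and 353 counts.

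The serotonin transporter SLC6A4 had 17 and 10 counts in replicate 1 and 4010 and 3465 in replicate 2, which is 120-fold (VEC) and 158-fold (VHL) more in CPM. For SLC43A2 the replicate 2 CPM was 95.7-fold and 68.0-fold that of replicate 1. Between VHL and VEC, the log2 changes within replicate 2 were 0.05 (SLC36A2), -0.04 (SLC7A14), 0.21 (SLC6A11), -0.21 (SLC6A14), -0.05 (SLC6A4) and 0.19 (SLC43A2). Within replicate 1 they were -0.41 for SLC6A4 and 0.66 for SLC43A2, and the other 4 had no counts to compare. None of the 6 was called in the blocked fit. Pseudogenes took 1.40% and 2.09% of all counts in replicate 1 and 31.3% and 25.0% in replicate 2. The labelled molecule and the form of the alignment names change together with the replicate number and cannot be told apart. The floor of 3 counts stood at 0.130 (VEC) and 0.161 (VHL) CPM in replicate 1, while the replicate 2 levels of SLC36A2 were 65.1 and 67.3 CPM.

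**Figure D4:**
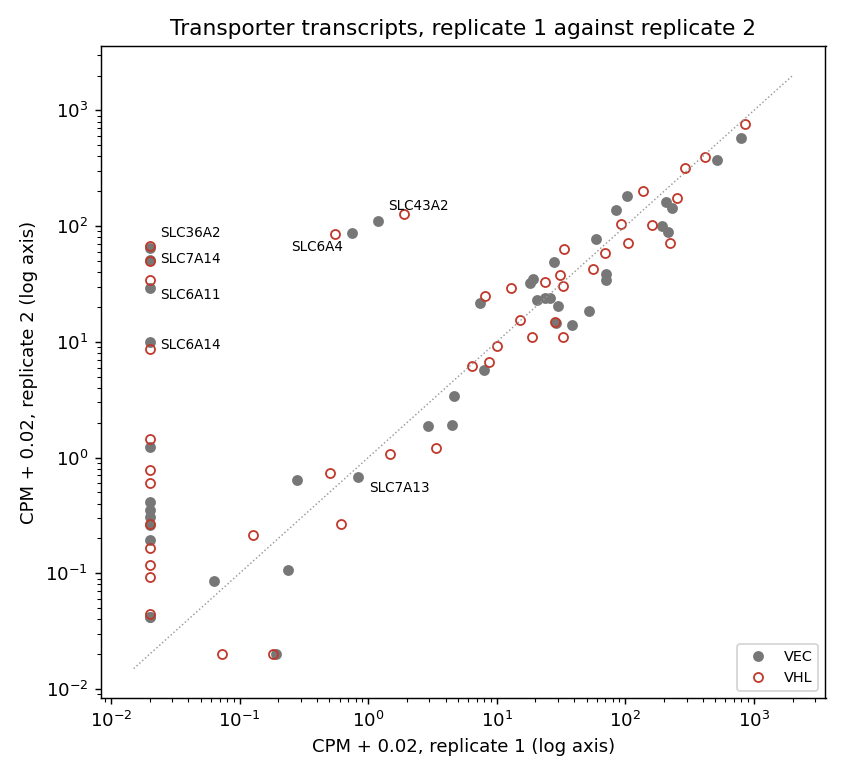
CPM + 0.02 of each detected transporter in replicate 1 (horizontal, log axis) and replicate 2 (vertical, log axis), VEC filled and VHL open; the dotted line marks equal values. SLC36A2, SLC7A14, SLC6A11 and SLC6A14 stand at the left edge at 0 in replicate 1, and SLC6A4 and SLC43A2 lie far above the line.

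Genes that sense or use the transported amino acids were read from lists chosen by role. Of 14 genes of the amino acid response, which is driven by the transcription factor ATF4, 4 fell and 1 rose in the blocked fit. Over all genes tested, 2.35% were called lower and 0.749% higher, the shares to set beside this list and those that follow. ASNS, TRIB3, DDIT3, CHAC1 and SESN2 were among the genes of the list not called (adjusted p from 0.432 to 0.997, edgeR). ASNS had between 8 and 16 counts a library and CHAC1 between 8 and 17. Their blocked SE were 0.74 and 0.78, so the changes of both were poorly measured. ATF4 itself was not called, with 78.5 and 75.0 CPM in VEC and VHL of replicate 1 and 44.3 and 36.5 CPM in replicate 2 (adjusted p = 0.892, edgeR). SHMT2, the mitochondrial serine hydroxymethyltransferase, fell, with 320 and 123 CPM in replicate 1 and 92.6 and 30.7 in replicate 2 (blocked -1.49 ± 0.23, adjusted p = 3.06e-08, edgeR). The others that fell were DDIT4 (-1.54), STC2 (-1.63) and VLDLR (-0.79). Hypoxia is known to induce all 3, and the cause of the 4 falls was not tested.

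PSAT1, of serine synthesis, rose, with 104 and 168 CPM in replicate 1 and 77.4 and 134 in replicate 2 (blocked 0.74 ± 0.22, adjusted p = 0.0324, edgeR). Of 7 genes that make or use glutathione from imported cystine, 1 fell and 0 rose. This was GSS, glutathione synthetase, at 119 and 78.3 CPM in replicate 1 and 28.5 and 13.3 CPM in replicate 2 (blocked -0.84 ± 0.21, adjusted p = 0.00536, edgeR). By direction, 3 of the 7 were higher and 3 lower in VHL in both pairs. GCLM and GSR were among the higher, without a call (blocked 0.54 and 0.62, adjusted p = 0.270 and 0.246, edgeR). GPX4 and GGCT were among the lower, also without a call (blocked -0.49 and -0.32, adjusted p = 0.266 and 0.616, edgeR). None of the 12 genes of lysosomal amino acid sensing was called. In the group-only fit 0 genes of these lists were called.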

How the data were processed

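RNA values were the authors' deposited raw counts per gene symbol on hg19, per the file headers. featureCounts and HOMER are named in the submitters' processing notes, without a version or a role. The aligner, annotation, strand setting and treatment of multi-mapping reads are not given in the sources used here. The H3K27ac tables were not used, since their regions have no positions.

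The fits used edgeR 4.0.16 under R 4.3.3: filterByExpr kept 24417 of 43682 genes, followed by TMM scaling, glmQLFit and glmQLFTest (two-sided), with Benjamini-Hochberg adjustment over all genes tested. The main fit had group alone (common dispersion 2.57, 2 residual degrees of freedom), and the blocked fit added the replicate number (0.0251, 1 degree of freedom). SE was obtained as |log2 change| / sqrt(F). Pair changes are log2 CPM differences with a prior count of 2. Exact 95% intervals are Clopper-Pearson, cover counting error only, and compare libraries, not conditions. Deviations from the group means correlated at 0.982 between same-numbered libraries over 21673 genes. The molecule label and the form of the alignment names change with the number, which was therefore treated as a batch. DESeq2 1.42.0 was an alternative. Gene classes and neighbours came from RefSeq on GRCh38.p14 (97.9% of symbols matched).

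Genes were named if called, if their change was at least 0.5 in the same direction in both pairs, if they had most reads in their family, or for their role. The members and lists were chosen with earlier results of these data known. Some genes of the families and lists are not reported here.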

Additional observations from a re-analysis of the deposited data

How the results depend on the processing

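With the replicate block, the transporters called numbered 4 (2 higher and 2 lower; 756 of all 24417 genes tested), against 0 without it. With the block they numbered 6 with DESeq2 size factors (999 of 24417 genes), 4 without a filter (640 of 32804), 8 with at least 20 counts in every library (1181 of 12141), 8 with protein-coding genes alone (998 of 13916) and 5 in DESeq2's Wald test (1203 of 24417), and the calls over all genes rose in each of these but the fit without a filter. Every fit without the block called 0 transporters, and 0 of all genes except 6 in DESeq2. SLC6A13 and SLC7A2 were called in all 6 blocked fits. SLC6A15 and SLC6A19 were called in 5, and DESeq2 gave them no adjusted p. SLC6A12 and SLC7A11 were called in 4, SLC7A6 in 3 and SLC38A4 in 2. The cause of these differences was not tested.

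The median log2 change of the transporters stayed near 0. Without the block it was -0.081 with DESeq2 size factors, -0.089 with protein-coding genes alone and -0.081 in DESeq2. With the block it was -0.12 with DESeq2 size factors, -0.098 without a filter, -0.092 with at least 20 counts, -0.11 with protein-coding genes and 0.069 in DESeq2. Leaving out 1 library, which unbalances the replicates, moved the transporter median between -0.21 (without VHL replicate 2) and 0.25 (without VEC replicate 2). The median over all genes moved further in the same fits, to -0.66 and 0.69. With CPM over protein-coding genes the pair medians of the transporters were 0.11 in replicate 1 and 0.020 in replicate 2, against 0.07 and 0.11.

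No transporter called in the blocked fit changed sign in any fit. Leaving out 1 library, SLC6A13 ranged from -1.39 to -1.26, SLC6A19 from -1.92 to -1.43, SLC6A15 from 0.80 to 2.00 and SLC7A2 from 0.36 to 1.36. SLC7A1 did without the block, at -0.0019 with DESeq2 size factors, -0.014 with protein-coding genes and -0.0019 in DESeq2. Leaving out 1 library each time, signs also changed for SLC36A4 (-0.25 to 0.83), SLC38A2 (-0.33 to 0.10), SLC38A9 (-0.80 to 0.64), SLC3A1 (-0.11 to 0.75), SLC3A2 (-1.11 to 0.71), SLC43A2 (-5.00 to 5.82), SLC6A12 (-1.69 to 0.25), SLC6A14 (-10.24 to 9.91), SLC6A6 (-0.10 to 0.57), SLC7A1 (-0.31 to 0.60), SLC7A5 (-0.48 to 0.25) and SLC7A7 (-0.51 to 0.39). With 2 libraries per group and 1 residual degree of freedom in the blocked fit, changes of low-count genes remain poorly measured.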
